A study of Mus musculus with 10 samples.

Results

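The transcript composition of inner hair cells (IHCs) of the adult mouse cochlea is described from 4 lanes of sequence, which are 2 lanes of each of 2 libraries, out of 10 lanes and 5 libraries in all. The lanes were chosen by their label as IHCs, and both lanes of each library were averaged, which leaves n = 2 (replicates 1 and 2). The other 3 libraries hold outer hair cells (OHCs) and were used only for comparison. Both cell types came from untreated CBA/J mice that the labels give as 28 to 32 days old, and the methods of the study give a slightly wider range. Cells were dissociated from the organ of Corti and recognised by shape. About 1000 cells per library were drawn 1 by 1 into a suction pipette. Cells of several mice were pooled in a library, so that the spread between libraries is not the spread between animals. The deposited unit is RPKM, which is reads per kilobase of exon, scaled to the mapped reads of the lane, so that levels can be compared between genes. A share is the RPKM of a gene or group as a percent of the summed RPKM of the library.

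IHCs are the receptors that pass sound on to the auditory nerve. Deflection of their stereocilia opens mechanotransduction channels, the cell depolarises, calcium enters at ribbon synapses through channels built on Cacna1d, and otoferlin (Otof) couples calcium to the release of glutamate, which the transporter encoded by Slc17a8 loads into vesicles. The release goes on without pause, and IHCs are known for the calcium buffers, calcium pumps and mitochondria that stand behind it.

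The IHC libraries rested on 22248104 and 20375240 reads, totals that were inferred from the RPKM values. On these totals 3 reads in a library correspond to 0.0674 and 0.0736 RPKM for a gene of 2 kilobases, a floor that covers counting error only. The methods of the study give a larger number of reads per sample, and the difference was not examined. Of the 5 markers of IHCs, all were present in every lane. Calb2, which encodes the calcium buffer calretinin, had 5083.8, 5076.7, 5169.5 and 5149.4 RPKM in the 4 IHC lanes, against a mean of 287 RPKM in OHCs, and stood at rank 6 of all genes in both IHC libraries. Otof had 214, 213, 207 and 207 RPKM in the IHC lanes and a mean of 13.8 RPKM in OHCs. Tbx2, the transcription factor that holds IHC identity, had 82.0, 77.5, 75.04 and 77.6 RPKM in the IHC lanes. Slc17a8 had 49.0, 48.4, 51.5 and 51.7 RPKM, and Slc7a14, a member of the cationic amino acid transporter family, had 24.2, 24.1, 22.9 and 23.5 RPKM in the same lanes. The lanes of these genes lay close together, and the order of the 5 markers was the same in each. The label is therefore matched by its markers, which ranged over ranks 6 to 2612.

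Markers of other cells were not all at 0. Of 9 markers of OHCs, 8 were detected (at least 0.1 RPKM in both IHC libraries), and their summed level was 449 and 474 RPKM in the IHC libraries against 14273 to 15182 RPKM in the OHC libraries. Ocm, the OHC calcium buffer oncomodulin, made up most of it at 373 and 396 RPKM, Slc26a5, which encodes prestin, had 10.1 and 8.91 RPKM, and Insm1 was listed at 0. Of 15 markers of supporting cells, 14 were detected, with S100a1, which belongs to the most abundant genes of both hair cell types, among them. Without S100a1 the other 14 summed to 1548 and 1549.9 RPKM in IHCs against 1247 to 1292 RPKM in OHCs. Epyc at 455 RPKM, Gjb6 at 447 RPKM, Gjb2 at 405 RPKM and Slc1a3 at 131 RPKM were the highest, Sox2 had 20.5 RPKM, and Prox1 was listed at 0. The fibrocyte and mesenchyme list (8 of 9 detected) summed to 325 and 323 RPKM and was led by Lum at 159 RPKM, with the collagen gene Col1a1 at 0.286 RPKM. Of 6 erythrocyte genes 5 were detected, at a sum of 343 and 356 RPKM in IHCs against 1552 to 1666 RPKM in OHCs. The leukocyte list (9 of 11 detected) summed to 14.8 and 15.1 RPKM with Ptprc at 0, the Schwann cell and glia list (6 of 7) to 7.18 and 7.44 RPKM with Egr2 at 0, the stria vascularis list (4 of 8) to 33.1 and 33.0 RPKM with Tyr at 0, and the neuron list (7 of 11) to 69.9 and 67.0 RPKM with Prph and Ntrk3 at 0. On the neuron list Nefl and Snap25 were the highest, at 32.0 and 24.3 RPKM on average. None of 7 vessel markers was detected. The part of these other cells in the levels below was not tested.

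**Figure D1:**
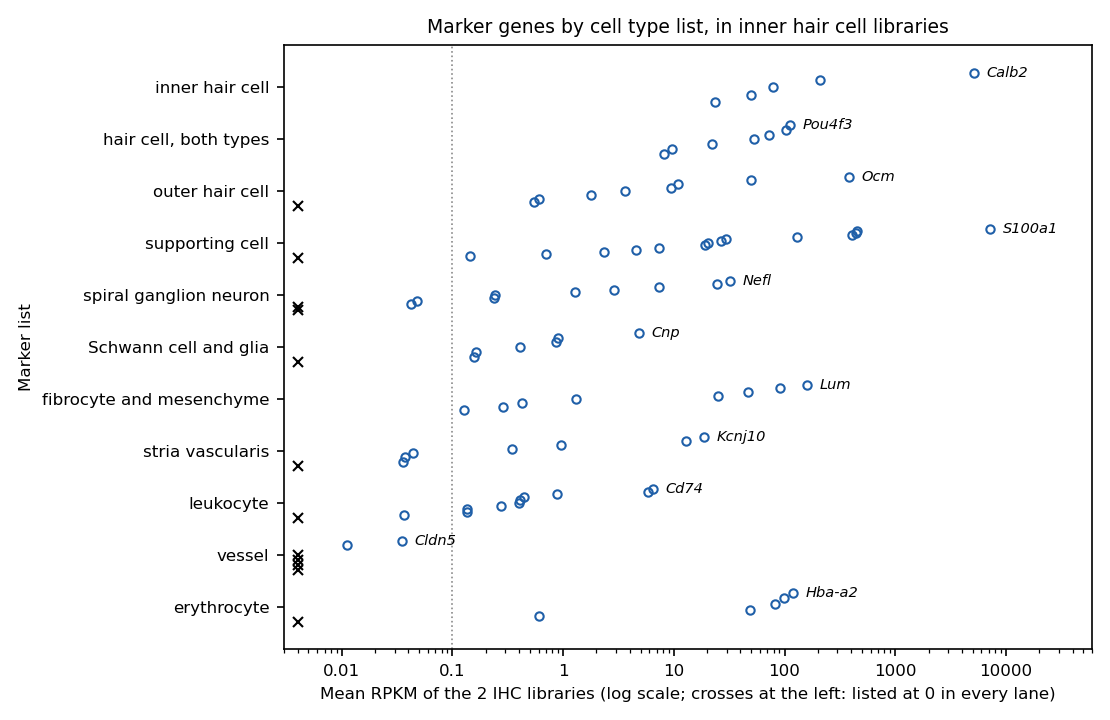
Mean RPKM of the 2 IHC libraries (log axis) for each gene of 11 marker lists, 1 point per gene, with the highest gene of each list named and crosses for genes listed at 0 in every IHC lane. The 5 IHC markers lie between 23.7 and 5119.8 RPKM, the supporting cell list reaches 455 RPKM without S100a1, and every vessel marker lies under the dotted line at 0.1 RPKM.

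IHC transcripts were concentrated in few genes. Of 48440 listed genes, 14429 were detected in both IHC libraries, 10568 reached 1 RPKM, 4635 reached 10 RPKM, 617 reached 100 RPKM and 37 reached 1000 RPKM in both. The median of the detected genes was 4.15 RPKM. The single most abundant gene held 3.26% ± 0.0461 of the summed RPKM (SD, n = 2 libraries), the first 10 genes held 15.8% ± 0.178, the first 25 held 25.2% ± 0.246, the first 100 held 38.1% ± 0.287 and the first 1000 held 69.2% ± 0.310. A share of 50% was reached with 279 and 288 genes, and a share of 90% with 3641 and 3697 genes. OHCs needed 270 to 276 and 3883 to 3921 genes for the same shares, so that the IHC libraries lay above the OHC libraries at 50% and below them at 90%. The libraries of IHCs agreed on the abundant genes, since 96 genes stood among the first 100 of both.

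**Figure D2:**
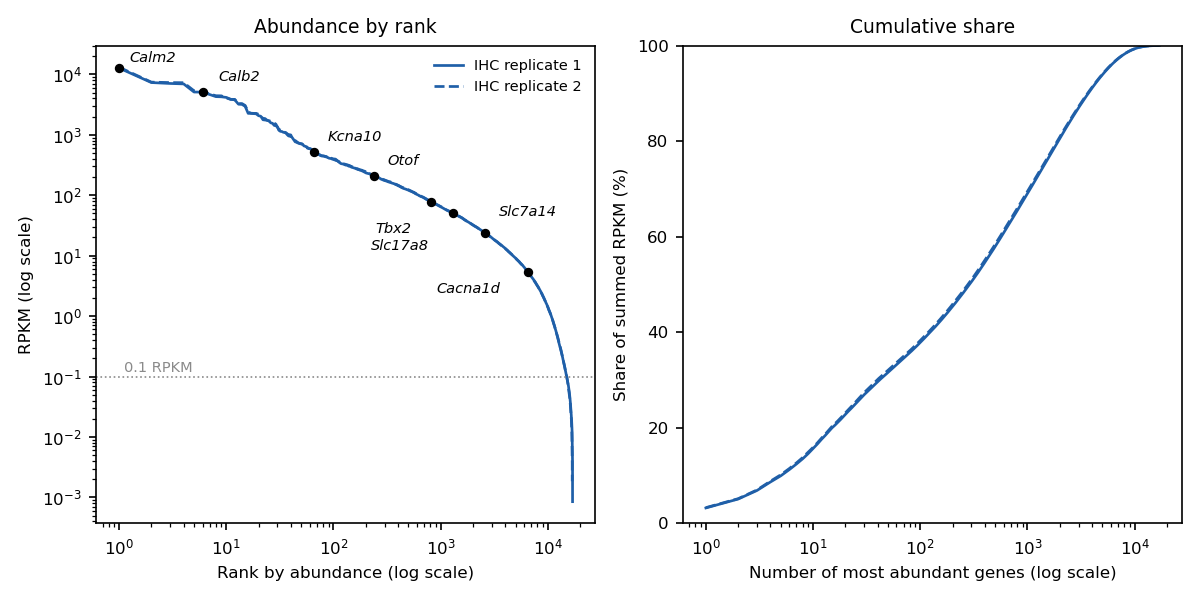
RPKM by abundance rank (left, both axes log) and cumulative share of summed RPKM by number of genes (right, log x axis) in IHC replicate 1 (solid) and replicate 2 (dashed), with selected genes marked at their mean. The curves of the libraries lie on each other, 100 genes hold 38.1% of the sum, and the markers spread over more than 2 orders of magnitude from Calb2 at 5119.8 to Slc7a14 at 23.7 RPKM.

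The first rank was held by Calm2, 1 of the 3 genes that encode the calcium sensor calmodulin (12751, 12651, 13117 and 13113 RPKM in the 4 lanes). Its lowest lane lay far above the highest lane of any other gene. Fbxo2 followed at 7313 and 7434 RPKM in replicates 1 and 2. It encodes a ubiquitin ligase subunit that recognises glycoproteins, and Skp1a, which encodes the SKP1 protein that binds such subunits, stood at rank 5 with 5098 and 5346 RPKM. S100a1, a calcium-binding protein of the S100 family, had 7062 and 7303 RPKM, close to mt-Atp6, the mitochondrially encoded ATP synthase subunit, at 6948 and 7271 RPKM. Skp1a lay close to Calb2 (5080.3 and 5159 RPKM). In both pairs the ranges of the libraries overlapped, and the order was the same within each library. Of the first 25 genes, 9 overlapped in range with the gene next in rank, and for 3 of them the order differed between the libraries.

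Ubb, a polyubiquitin gene, had 4632 and 4738 RPKM, and Pcp4, a regulator of calmodulin, had 4248 and 4427 RPKM. Both differed more between lanes than between libraries, since Ubb had 4384 and 4491.5 RPKM in the first lanes against 4879.9 and 4985 RPKM in the second lanes, and Pcp4 had 3907 and 4073 against 4590.1 and 4781 RPKM. Fcrlb, an Fc receptor-like gene, ranked 10 at 4152 and 4061 RPKM. The light and heavy chains of the iron store ferritin, Ftl1 and Fth1 (listed as Fth1_2), stood at 3818 and 3005 RPKM on average, and Gpx2, a glutathione peroxidase, and Sepw1, a selenoprotein, at 2268 and 1803 RPKM. Acbd7, which encodes an acyl-CoA binding domain protein, had 2261 and 2394 RPKM. Itm2b, a transmembrane protein gene, averaged 2241 RPKM, Cldn9, a tight junction claudin without which mice are deaf, 2004 RPKM, and Ceacam16, a protein of the tectorial membrane, 1756 RPKM. Also among the first 25 were mt-Co3, mt-Co1, mt-Nd1 and mt-Cytb (3234 to 4342 RPKM), the nuclear noncoding RNA Malat1 (1736 and 1874 RPKM), Gm30191 (2069.7 and 2182 RPKM), a predicted protein-coding gene, and Gm26825, a predicted noncoding RNA whose level depended on the lane (2015 and 2022 RPKM in the first lanes, 1377 and 1371 RPKM in the second lanes).

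**Figure D3:**
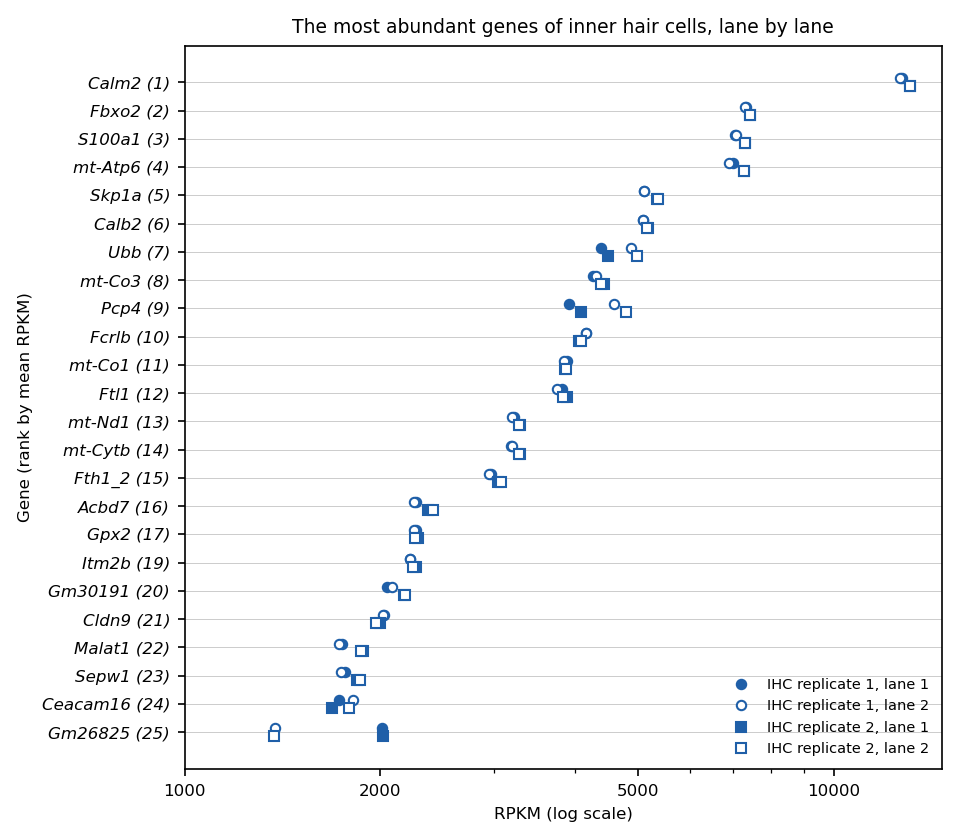
RPKM (log axis) of 24 of the 25 most abundant IHC genes in each of the 4 IHC lanes, circles for replicate 1 and squares for replicate 2, filled for the first lane and open for the second. Calm2 stands apart at 12651 to 13117 RPKM, and the first and second lanes separate for Ubb, Pcp4 and Gm26825.

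Among the first 100 genes, 92 were protein coding, 13 were encoded by the mitochondrial genome and 72 were also among the first 100 of OHCs. The most abundant genes in none of the families or paralog sets described below were Fbxo2, Fcrlb, Acbd7, Itm2b, Gm30191, Ceacam16, Gm26825, Tspan13 (1547 and 1558 RPKM), Cd164l2 (1185 and 1199.7 RPKM) and Ndfip1 (1139.5 and 1208.5 RPKM). Tspan13 encodes a tetraspanin and Ndfip1 an adaptor of ubiquitin ligases. Near them, at rank 38, stood Gm8797, a predicted gene that was chosen here after its values were seen. Gm8797 had 1827 and 1921 RPKM in the first lanes and 92.1 and 92.9 RPKM in the second lanes, so that its mean stands for neither.

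The start regions of 4 abundant genes are shown because they differ in their composition, and they are the window from 250 bases before to 50 bases after the start, 5′ to 3′, from RefSeq (build GRCm38.p6). Capitals mark each match to the TATA box searched as TATAAA, to the CCAAT box searched by those letters, or to the GC box searched as GGGCGG, on either strand, where neighbouring GC boxes may share bases. Fbxo2 lies at chr4:148160418-148160717 on the plus strand, Acbd7 at chr2:3335918-3336217 (plus), Kcna10 at chr3:107182893-107183192 (plus) and Atp2a3 at chr11:72960919-72961218 (plus).
Fbxo2: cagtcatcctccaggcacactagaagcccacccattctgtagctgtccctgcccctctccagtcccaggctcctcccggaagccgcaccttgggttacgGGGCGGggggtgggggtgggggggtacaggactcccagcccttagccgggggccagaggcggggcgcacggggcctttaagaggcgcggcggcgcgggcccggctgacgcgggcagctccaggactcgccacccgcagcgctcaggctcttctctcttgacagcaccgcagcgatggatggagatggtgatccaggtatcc
Acbd7: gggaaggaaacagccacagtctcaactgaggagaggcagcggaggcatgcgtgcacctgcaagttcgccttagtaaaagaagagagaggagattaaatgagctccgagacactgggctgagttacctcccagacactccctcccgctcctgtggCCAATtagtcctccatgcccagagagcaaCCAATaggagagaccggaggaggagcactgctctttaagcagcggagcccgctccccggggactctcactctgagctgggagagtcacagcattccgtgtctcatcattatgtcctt
Kcna10: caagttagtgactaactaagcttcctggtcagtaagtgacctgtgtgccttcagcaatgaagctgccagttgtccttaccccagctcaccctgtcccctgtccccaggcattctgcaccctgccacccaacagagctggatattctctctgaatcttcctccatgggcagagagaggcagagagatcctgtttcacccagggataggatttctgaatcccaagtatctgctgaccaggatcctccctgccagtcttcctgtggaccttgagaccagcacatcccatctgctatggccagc
Atp2a3: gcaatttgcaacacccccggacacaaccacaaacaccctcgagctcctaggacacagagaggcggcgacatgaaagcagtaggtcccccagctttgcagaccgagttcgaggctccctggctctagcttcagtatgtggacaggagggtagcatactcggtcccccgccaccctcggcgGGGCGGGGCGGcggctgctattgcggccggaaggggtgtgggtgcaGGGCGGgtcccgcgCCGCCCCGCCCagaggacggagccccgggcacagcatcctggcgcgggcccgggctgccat
Atp2a3 held 5 GC boxes and 25 CpG, Fbxo2 held 1 GC box and 21 CpG, Acbd7 held 2 CCAAT boxes and 10 CpG, and Kcna10 held none of the motifs and 0 CpG. Over the 72 windows of the 59 matched genes among the first 100, 5.56% held TATAAA, 56.9% held CCAAT and 51.4% held GGGCGG. Over all 32851 windows the shares were 13.6%, 37.4% and 35.7%, and over the 13004 windows of genes detected in IHCs they were 6.94%, 37.3% and 61.6%. A match is a run of letters and not a bound site, and several windows belong to 1 gene.

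By function, 42 families with 3811 genes held 46.9% and 47.4% of the summed RPKM of the IHC libraries. Genes of energy supply held 12.8% and 13.1%, calcium-binding proteins with calcium pumps and exchangers 9.58% and 9.73%, protein turnover 7.57% and 7.58%, antioxidant and metal-binding proteins 3.56% and 3.60%, protein synthesis 2.85% and 2.91%, the cytoskeleton 2.14% and 2.12%, ion channels, receptors and transporters 1.20% and 1.17%, the synapse 0.906% and 0.889% and the hair bundle 0.676% and 0.657%. Of the families, 9 held over 1% each and 5 held under 0.1%. In 7 families 1 gene held more than 50% of the family. The counts of detected genes below stand beside 58.1% of all protein-coding genes detected in both IHC libraries. The counts of genes listed at 0 stand beside 34.1% of all protein-coding genes.

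Against OHCs, the share lay above all 3 OHC libraries in both IHC libraries for 26 families and below all of them for 14, and 2 families overlapped. Among 16462 single genes (at least 0.1 RPKM in 2 or more libraries) the same was true of 34.1% in the upward and 44.7% in the downward direction, so that libraries without overlap were the rule in this table. In an exact permutation test over the 10 splits of 5 libraries (two-sided) the smallest possible p is 0.1, and the lowest p adjusted over the families was 0.111, so that no family could pass 0.05.

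**Figure D4:**
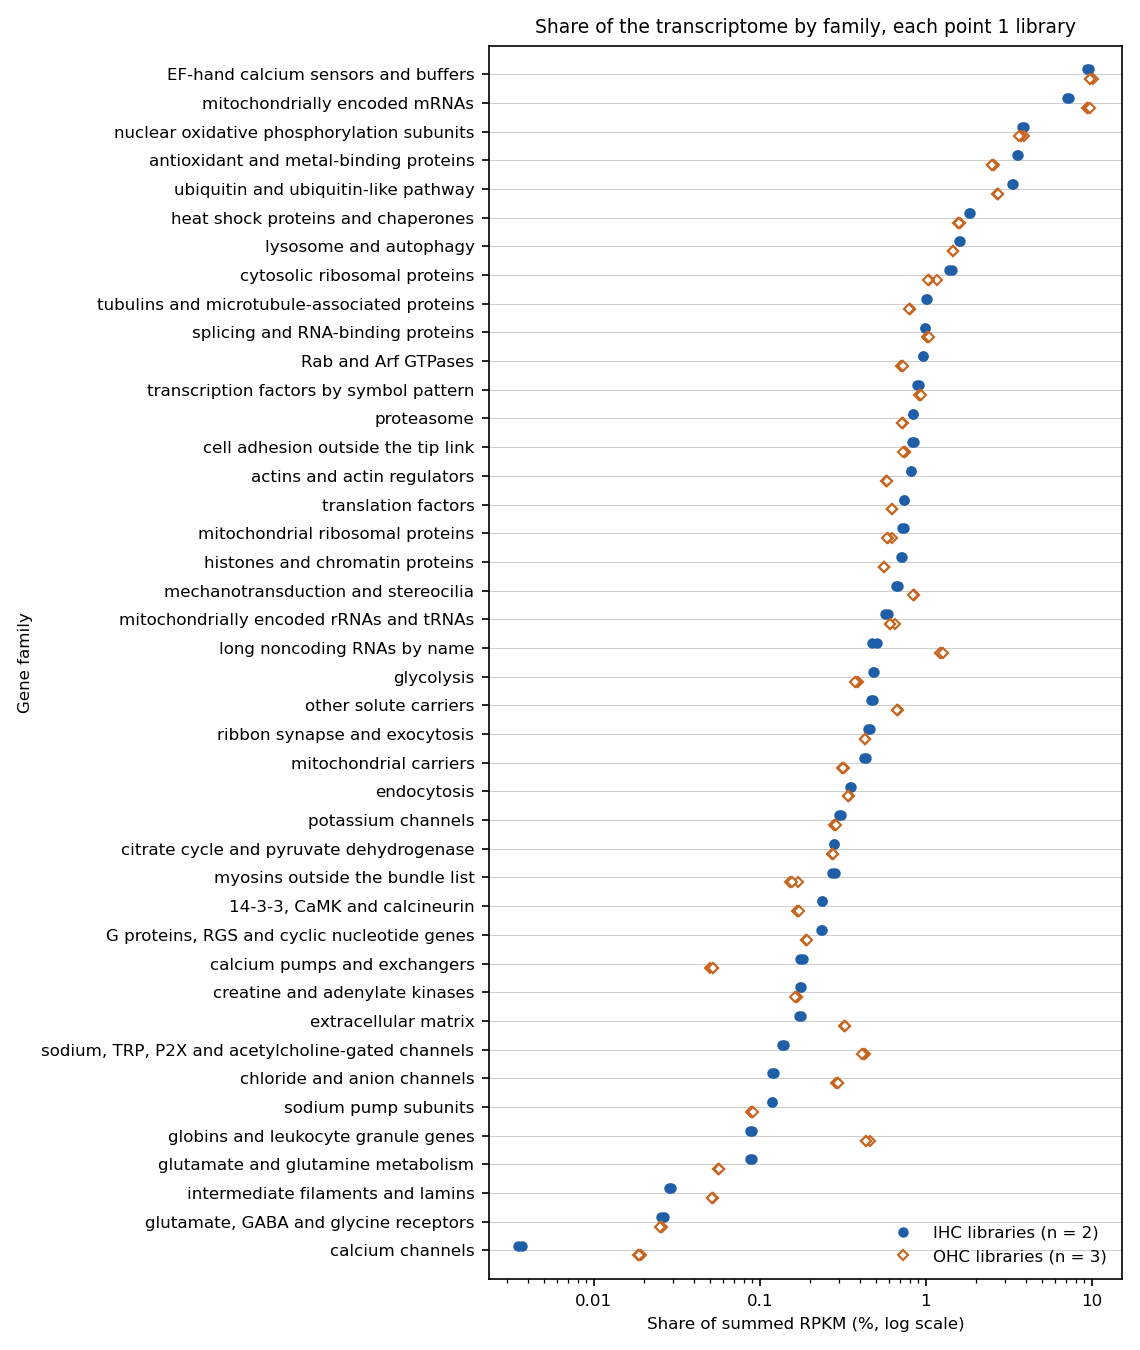
Share of summed RPKM (percent, log axis) of 42 gene families, with IHC libraries as blue circles above OHC libraries as open orange diamonds, 1 point per library. IHC libraries of a family lie close together, from 9.40% and 9.56% for EF-hand proteins counted with Pcp4 down to 0.00372% and 0.00349% for voltage-gated calcium channel subunits.

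EF-hand calcium sensors and buffers were the largest family of IHCs, with 9.40% and 9.56% of the summed RPKM, against 9.68% to 10.2% in OHCs (exact permutation p = 0.2). Of 70 genes 47 were detected, and the first 3, Calm2, S100a1 and Calb2, held 67.3% of the family. The direction of this comparison depends on the measure: counted as shares of recovered reads, which rest for many genes on an exon length found from the values, the IHC share was higher by 1.37 percentage points. The family, and the calcium group above, also counted Pcp4, a regulator of calmodulin that is not itself an EF-hand protein. Pcp4 averaged 4338 RPKM in IHCs and 6045 RPKM in OHCs. Shares without Pcp4 were not computed, so the direction for EF-hand proteins alone was not tested. Calcium pumps and exchangers held 0.182% and 0.175% in IHCs against 0.0505% to 0.0520% in OHCs (exact permutation p = 0.1). Atp2a3, a pump that returns calcium to the endoplasmic reticulum, made up 64.7% of the IHC family at 465 and 448 RPKM, and Slc24a3, a potassium-dependent sodium-calcium exchanger, had 79.5 and 76.1 RPKM. Micu2, a regulator of calcium entry into mitochondria, had 24.7 and 28.0 RPKM.

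Within energy supply, the 13 mitochondrially encoded mRNAs held 7.05% and 7.24% in IHCs against 9.29% to 9.69% in OHCs (exact permutation p = 0.1). All 13 were detected, and mt-Atp6, mt-Co3 and mt-Co1 held 54.2% of the family. The 90 nuclear genes of oxidative phosphorylation held 3.80% and 3.90% in IHCs and 3.65% to 3.90% in OHCs, which overlapped (exact permutation p = 0.4). They were spread over many genes, with a median of 135 RPKM, and 4 were listed at 0 in every IHC lane. The first member, Cox8a at 945 and 1003 RPKM, held 6.39% of the family and was followed by Cox6a1, Uqcr11 and Ndufa1. Glycolysis genes held 0.488% and 0.479%, led by Pkm (408 and 398 RPKM), Pgam1 (317 and 315 RPKM), Ldhb and Aldoa, and the citrate cycle with pyruvate dehydrogenase held 0.282% and 0.279%, led by malate dehydrogenase Mdh2 at 279.5 and 285 RPKM. Mitochondrial carriers held 0.435% and 0.427%, and the ADP/ATP carriers Slc25a5 and Slc25a4 were their most abundant members. Ckb, the creatine kinase of brain, made up 85.6% of the creatine and adenylate kinases at 589 and 602 RPKM.

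In protein turnover, the ubiquitin pathway held 3.29% and 3.34%. Skp1a made up 39.8% of it and Ubb came second. Heat shock proteins and chaperones held 1.83% in both libraries and were spread over many genes (109 of 118 detected). Hsp90ab1 was the first at 708 and 704 RPKM and the endoplasmic reticulum chaperone Hspa5 the second at 445 and 449 RPKM. Hspa8 came next with a mean of 418 RPKM, but its lanes differed, and its place is uncertain. Lysosome and autophagy genes held 1.60% and 1.57% with the proton pump subunit Atp6v1g1 (1005 and 1040.3 RPKM) and Lamp1 (594 and 578 RPKM) on top, and all but 1 of the 50 proteasome genes were detected, at 0.841% and 0.840%. Cytosolic ribosomal proteins held 1.39% and 1.44%, with Rplp1 first at 329 and 352 RPKM, and all 76 mitochondrial ribosomal proteins were detected, at 0.719% and 0.734%. Translation factors held 0.742% and 0.739% and were led by Eif1. Among antioxidant and metal-binding proteins the first 3, Ftl1, Fth1 (Fth1_2) and Gpx2, held 64.3%. Metallothioneins were low, with Mt1 at 3.08 and 3.91 RPKM.

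Among ion channels, potassium channels held 0.308% and 0.299% of the summed RPKM, and 45 of 102 were detected. Kcna10, a voltage-gated channel, had 526 and 529.6 RPKM and 44.0% of the family. It was followed by Lrrc52, an auxiliary subunit of the large-conductance calcium-activated channel, at 207 and 197 RPKM, by the inward rectifier Kcnj16 at 181 and 173 RPKM and by the leak channel Kcnk1 at 115 and 116 RPKM. Sodium, TRP, P2X and acetylcholine-gated channels held 0.139% and 0.136% in IHCs against 0.415% to 0.429% in OHCs, and were led by the lysosomal channel Mcoln3 (130.5 and 131 RPKM) and the ATP receptor P2rx2 (101 and 103 RPKM). Chloride and anion channels held 0.121% and 0.119% in IHCs against 0.290% to 0.296% in OHCs. Vdac3 made up 38.1% of the IHC family and Vdac2 came second at 55.8 RPKM on average. These voltage-dependent anion channels are described with metabolism below. Voltage-gated calcium channel subunits held only 0.00372% and 0.00349% in IHCs against 0.0184% to 0.0192% in OHCs, and 10 of 26 were detected in IHCs. The transmitter receptor family overlapped between IHC and OHC libraries (0.0267% and 0.0253% in IHCs, 0.0251% to 0.0259% in OHCs). Among its highest genes it counted Grina, which is named after a glutamate receptor but is not itself a receptor. Grina averaged 44.3 RPKM in IHCs and 59.4 RPKM in OHCs. Shares without Grina were not computed, so an overlap of the receptors alone was not tested. Of the other solute carriers, 164 of 305 were detected, with the choline transporter Slc44a2 first at 269.5 and 256 RPKM.

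The hair bundle family held 0.676% and 0.657% in IHCs against 0.842% to 0.846% in OHCs (exact permutation p = 0.1), and 47 of 53 genes were detected. Lhfpl5, a subunit of the mechanotransduction complex, had 753 and 730.2 RPKM and 28.2% of the family, followed by the actin bundler Fscn2 (221 and 224 RPKM), Grxcr2 (199 and 203 RPKM) and Clrn2 (201 and 194 RPKM). Actins and their regulators held 0.819% and 0.813%, with gelsolin, Gsn, first at 489 and 478 RPKM. Of the myosins outside the bundle list, the light chain Myl6 made up 71.3% at 759 and 806 RPKM. Tubulins and microtubule-associated proteins held 1.02% and 0.996%. Among them Kifap3, which links kinesin to its cargo, had 291 and 288 RPKM. Intermediate filaments and lamins held 0.0292% and 0.0283%, and 40 of 65 genes were listed at 0. Nefl, the light neurofilament, was first with 32.4 and 31.6 RPKM, and is on the neuron list above.

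The synapse and exocytosis family held 0.461% and 0.451%, with 112 of 145 genes detected. Otof was its most abundant gene and made up 11.7%, followed by Napa, which takes SNARE complexes apart (137 and 135 RPKM), the vesicle GTPase Rab3a (125 and 126 RPKM) and Scamp1 (116 and 111 RPKM). All 41 endocytosis genes were detected, at 0.355% and 0.351%, led by the adaptor subunits Ap1m2 and Ap2m1 at 194 and 156 RPKM on average. Among nuclear genes, Malat1 made up 93.2% of the named long noncoding RNAs, which held 0.475% and 0.505% in IHCs against 1.21% to 1.27% in OHCs. Of 541 transcription factors found by symbol, 453 were detected, with Id2 (193 and 194 RPKM) and Gata3 (150.4 and 147 RPKM) on top. The 158 extracellular matrix genes held 0.178% and 0.173% in IHCs against 0.322% to 0.328% in OHCs, led by Sparc, Lum and Coch, and the globins and leukocyte granule genes held 0.0875% and 0.0897% against 0.436% to 0.463%. Cell adhesion genes held 0.850% and 0.830%, and 86.0% of that lay in Cldn9, Gjb6 and Gjb2, of which the gap junction genes Gjb6 and Gjb2 are on the supporting cell list above.

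Where a protein is encoded by several related genes, 1 of them often held most of the RPKM in IHCs. In 73 paralog sets with 373 members, 234 members were detected, beside 58.1% of all protein-coding genes, and 90 were listed at 0 in every IHC lane. 1 gene held more than 50% of the RPKM of its set in 63 sets, more than 75% in 39 sets and more than 90% in 27 sets. In the 7 sets of only 2 members a share over 50% follows from their size, and 56 of the 66 sets of 3 or more members had such a gene. The first member was at least 2-fold above the second in both IHC libraries in 51 sets, on the scale of log2(RPKM + 0.1), and the ranges of the first 2 members overlapped in 2 sets. 53 sets were led by the same gene in OHCs and 20 by another. In 18 sets the members together were under 10 RPKM. Levels of members with near-identical copies are uncertain, and how reads were assigned between copies was not tested.

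**Figure D5:**
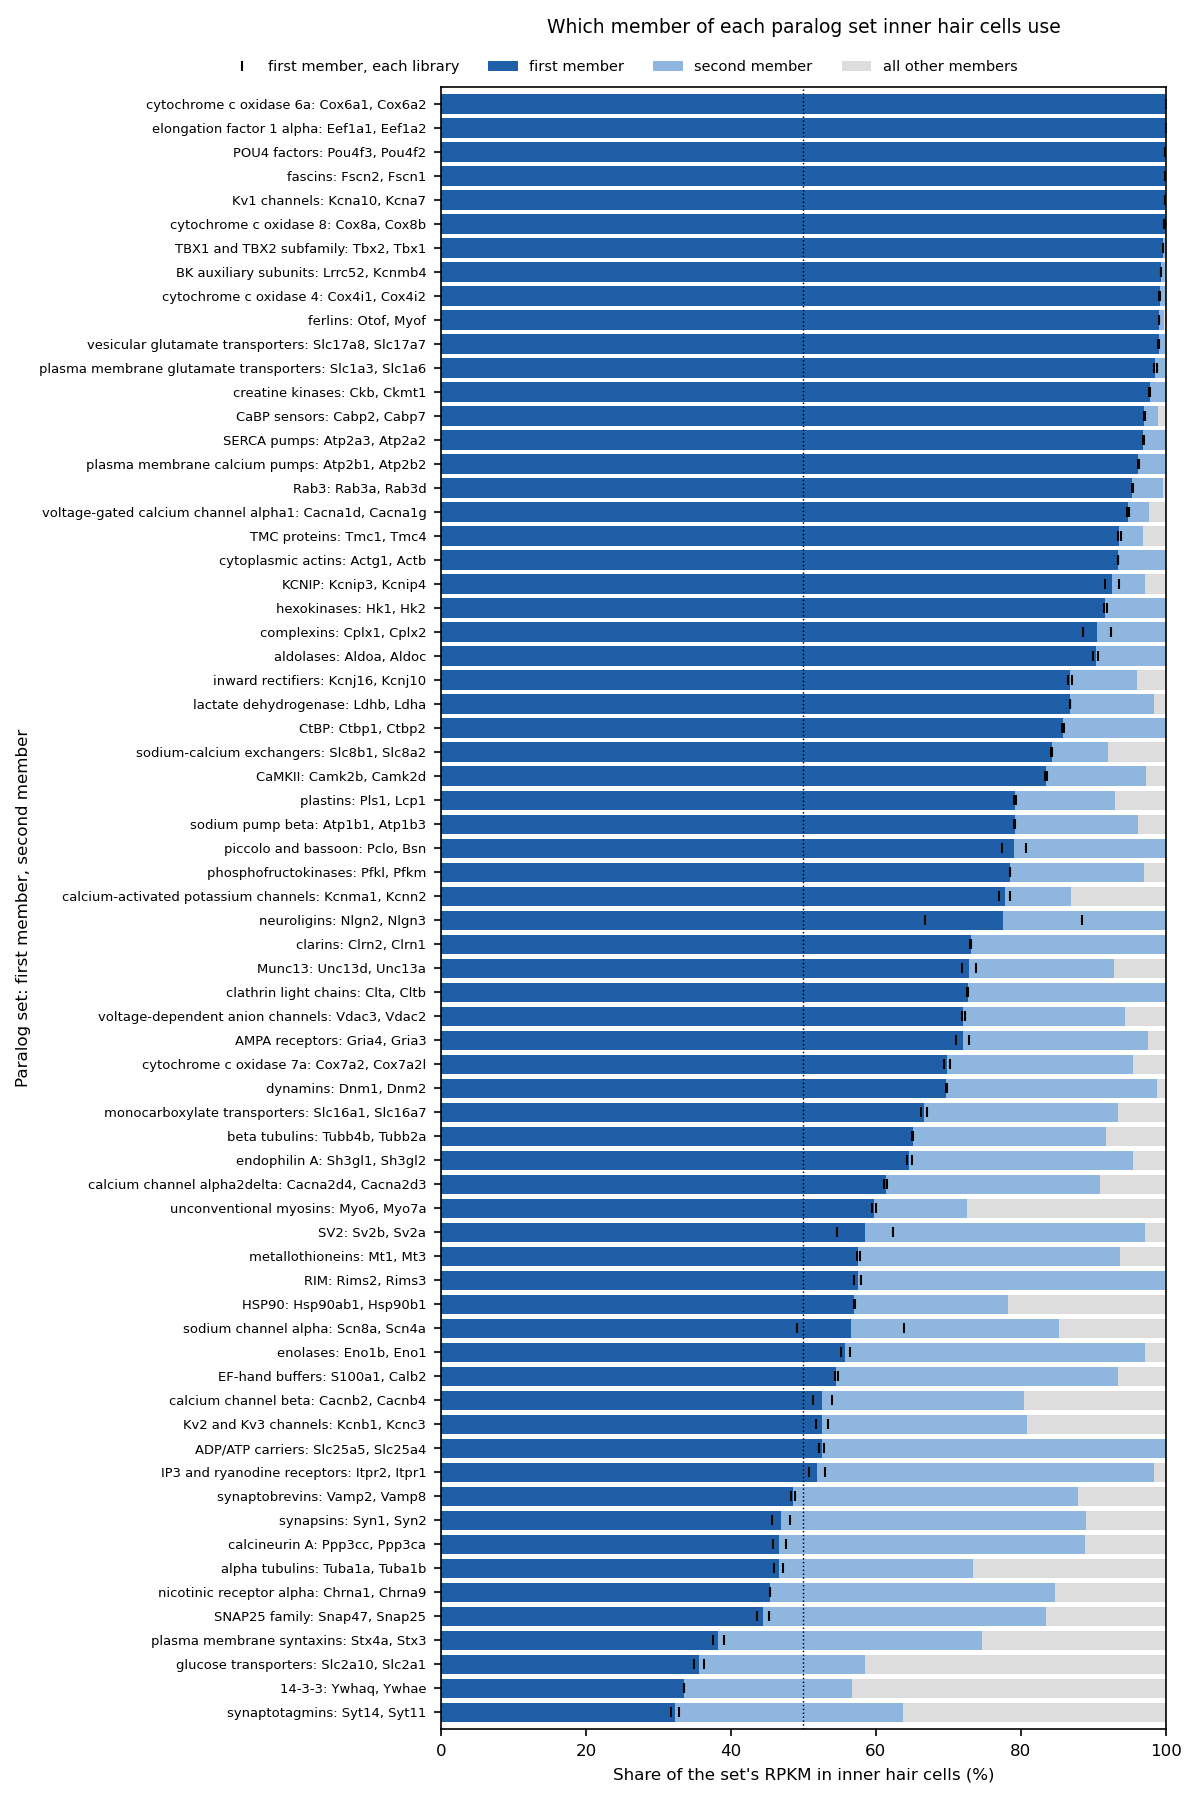
Share of the RPKM of each of 68 paralog sets held by its first member (dark), second member (light) and all others (grey) in IHCs, mean of 2 libraries, with a tick for the first member in each library and a dotted line at 50%. The first member lies over 50% in 58 of these sets, from 100% for Cox6a1 down to 32.3% for Syt14.

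For calcium, Calm2 held 84.9% ± 0.209 of the calmodulin RPKM (SD, n = 2), and Calm3, at 47.8 and 47.0 RPKM, 0.312%, while Calm4 and Calml3 were listed at 0. Among small buffers, S100a1 held 54.6% and Calb2 38.9%, with Pvalb, parvalbumin, at 442 and 460.1 RPKM and S100g at 0. Cabp2 held 97.0% of the CaBP sensors, which tune calcium channels, at 1345 and 1351 RPKM. Cabp7 had 26.4 and 27.5 RPKM, Cabp1 12.4 and 12.3 RPKM, and Cabp5 was listed at 0. Atp2a3 held 96.9% of the SERCA pumps, with Atp2a2 at 14.6 and 14.8 RPKM and Atp2a1 at 0, and Atp2b1 held 96.2% of the plasma membrane pumps at 38.8 and 40.2 RPKM, with Atp2b2 at 1.44 and 1.58 RPKM. In OHCs the first SERCA gene was Atp2a2. Of the sodium-calcium exchangers, the mitochondrial Slc8b1 held 84.2% at 2.93 and 3.23 RPKM. The stores' release channels were low, with Itpr2 at 1.71 and 1.73 RPKM, Itpr1 at 1.61 and 1.48 RPKM and Ryr1 at 0. Camk2b held 83.4% of the CaMKII genes.

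At the synapse, Otof held 99.1% of the ferlins, with Myof at 1.26 and 1.26 RPKM, Dysf at 0.647 and 0.589 RPKM, and Fer1l4 and Fer1l6 at 0. Slc17a8 held 99.0% of the vesicular glutamate transporters. Slc17a7 had 30 and 42 reads (0.344 and 0.526 RPKM) and Slc17a6 12 and 7 reads. Cacna1d held 94.8% of the pore subunits of voltage-gated calcium channels, but at 5.46 and 5.25 RPKM it stood at rank 6514. Its mean in OHCs was 29.1 RPKM. Cacna1g had 0.160 and 0.160 RPKM, and Cacna1f, Cacna1h, Cacna1i and Cacna1s were listed at 0. Cacnb2 held 52.6% of the beta subunits (3.56 and 3.42 RPKM) with Cacnb4 second, whose lanes differed, and Cacna2d4 held 61.3% of the alpha2delta subunits (1.010 and 1.020 RPKM). Of the C-terminal binding proteins, Ctbp1 had 58.0 and 57.8 RPKM and Ctbp2, the locus that also gives the ribbon protein RIBEYE, 9.70 and 9.48 RPKM. The active zone scaffold genes were low, with Pclo at 1.21 and 1.13 RPKM and Bsn at 0.291 and 0.329 RPKM, though their long exons collected 605 and 515 reads and 103 and 107 reads. Rims2 (7.06 and 7.03 RPKM) and Rims3 (5.29 and 5.08 RPKM) shared the RIM set, and Rims1 had 0.0190 and 0.0139 RPKM. The first RIM gene of OHCs was Rims3. Unc13d led the Munc13 set at 2.78 and 2.52 RPKM. Cplx1 held 90.5% of the complexins at 4.17 and 4.33 RPKM, with Cplx3 and Cplx4 at 0. Rab3a held 95.4% of its set.

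In several synaptic sets the first members lay close together. Of 17 synaptotagmins 9 were detected, and Syt14 (6.26 and 6.51 RPKM) and Syt11 (6.13 and 6.28 RPKM) overlapped in range, with Syt14 the higher in each library, and were followed by Syt3 at 5.13 and 5.19 RPKM and Syt7 at 0.665 and 0.690 RPKM. Syt5, Syt8, Syt10, Syt15, Syt16 and Syt17 were listed at 0. The plasma membrane syntaxins Stx4a (6.46 and 5.77 RPKM) and Stx3 (6.29 and 5.34 RPKM) also overlapped in range, with Stx4a the higher in each library, and Stx19 was at 0. Snap47 (27.3 and 28.0 RPKM) and Snap25 (25.1 and 23.6 RPKM), Vamp2 (107 and 108 RPKM) and Vamp8 (84.4 and 88.96 RPKM), and Syn1 (2.82 and 2.92 RPKM) and Syn2 (2.40 and 2.77 RPKM) lay close together without overlap. Snap25 is on the neuron list above. Dnm1 held 69.7% of the dynamins at 37.9 and 36.4 RPKM, Clta 72.7% of the clathrin light chains and Sh3gl1 64.6% of the endophilins. Slc1a3 held 98.6% of the plasma membrane glutamate transporters, with Slc1a1 at 0. Slc1a3 is a marker of supporting cells, whose part was not tested. Among adhesion genes of synapses, Nlgn2 lay near the limit at 0.148 and 0.127 RPKM, and Nrxn3 and Nlgn1 were listed at 0.

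For membrane currents, Kcna10 held 99.8% of the Kv1 genes, and Kcna3, Kcna4 and Kcna5 were listed at 0. Kcnma1, the pore of the large-conductance channel, had 11.7 and 11.6 RPKM and its auxiliary subunit Lrrc52 held 99.3% of its set, while Kcnmb1, Kcnmb2 and Lrrc26 were at 0. Kcnj16 held 86.8% of 15 inward rectifiers, of which 8 were at 0. Sodium channel pore genes were near the limit, and Scn8a led at 0.174 and 0.140 RPKM. Atp1b1 (264 and 266 RPKM) led the beta subunits of the sodium pump with 79.1% of the set. Of the nicotinic receptor subunits, Chrna1 of muscle had 33.1 and 32.4 RPKM, Chrna9, the subunit of efferent synapses in hair cells, 29.2 and 27.4 RPKM (1969 and 1691 reads) and Chrna10 10.4 and 11.3 RPKM. Chrna10 is on the OHC list. Gria4 at 1.19 and 0.902 RPKM led the AMPA receptors and Gria1 was at 0.

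In the hair bundle and cytoskeleton, Tmc1, the pore of the mechanotransduction channel, held 93.6% of the TMC genes at 72.0 and 73.9 RPKM, and Tmc2, its partner in young hair cells, was listed at 0, where 3 reads would have been 0.0438 RPKM. Clrn2 held 73.1% of the clarins and Clrn1 26.9% (73.7 and 71.9 RPKM), in contrast to OHCs, where Clrn1 was first. Actg1 held 93.3% of the actins at 389.8 and 383.5 RPKM and Actb 6.65% at 27.6 and 27.5 RPKM. Pls1 held 79.2% of the plastins, Fscn2 99.9% of the fascins, and Myo6 59.7% of 24 unconventional myosins at 104 and 102 RPKM, with Myo7a at 22.03 and 21.98 RPKM and Myo1e at 15.8 and 15.2 RPKM. Tuba1a, Tuba1b and Tuba8 (205 and 203 RPKM) shared the alpha tubulins, and Tubb4b held 65.1% of the beta tubulins.

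In metabolism, Ldhb held 86.7% of lactate dehydrogenase at 285 and 291 RPKM against Ldha at 38.1 and 38.6 RPKM. Hk1 held 91.7% of the hexokinases at 9.59 and 9.27 RPKM, with Hk3 and Hkdc1 at 0, Pfkl 78.5% of the phosphofructokinases, Aldoa 90.3% of the aldolases and Ckb 97.8% of the creatine kinases. Glucose transporters were divided, with Slc2a10 at 17.4 and 17.9 RPKM, Slc2a1 at 11.5 and 11.2 RPKM and Slc2a8 at 9.69 and 9.28 RPKM. Slc16a1 led the monocarboxylate transporters at 1.67 and 1.81 RPKM. Among cytochrome c oxidase subunits, Cox4i1 held 99.1%, Cox6a1 100% and Cox8a 99.8% of their sets, and the muscle form Cox6a2 was at 0. The 7a set was less uneven, with Cox7a2 at 69.8%, Cox7a2l at 25.7% and the muscle form Cox7a1 at 4.53% (13.9 and 16.1 RPKM). Eef1a1 held all but a trace of elongation factor 1 alpha (Eef1a2 had 0 and 0.0235 RPKM). Vdac3 held 72.0% of the voltage-dependent anion channels at 179 and 182 RPKM. Pou4f3, the hair cell transcription factor, held 99.9% of its set at 111 and 111 RPKM, and Tbx2 held 99.6% of its subfamily with Tbx4, Tbx5 and Tbx10 at 0.

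Of all listed genes, 30819 (63.6%) were at 0 in every IHC lane, and of 21683 protein-coding genes 7385 (34.1%) were. A listed 0 gives an upper limit and not absence. In Gria1, 3 reads in a library would be 0.0233 RPKM and in Cplx4 0.0725 RPKM. Of the 30819 genes at 0 in every IHC lane, 37 had at least 1 RPKM in every OHC library. In the other direction, 20 genes of at least 1 RPKM in both IHC libraries were at 0 in every OHC lane. The first of the 37 by OHC level were chosen after their values were seen: Gm44691, Wfdc1, Umodl1 and Myoz1, at 14.04, 11.6, 10.9 and 8.35 RPKM in OHCs.

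Of 146 genes linked to hearing loss, 141 were found in the table, 123 were detected in IHCs, beside 58.1% of all protein-coding genes, 66 reached 10 RPKM and 20 reached 100 RPKM in both IHC libraries. They held 2.57% and 2.53% of the summed RPKM, and their median was 9.13 RPKM beside 4.15 RPKM for all detected genes and 0.600 RPKM for all protein-coding genes. Within this list, which is not complete, the highest were Ceacam16 (1773 and 1739 RPKM), Cabp2, Cib2, which encodes a calcium-binding partner of the mechanotransduction channel (1089 and 1115 RPKM), Lhfpl5 and Gjb6. Listed at 0 were 13, among them Col4a3, Dspp, Esrrb, Fgf3, Foxi1, Hgf, Nlrp3, Pax3, Slc22a4, Tmem132e and Tnc.

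By gene type, protein-coding genes held 96.4% of the summed RPKM in both IHC libraries, long noncoding RNAs 1.69% and 1.73%, pseudogenes 0.979% and 0.992%, and mitochondrial rRNA and tRNA 0.571% and 0.588%. Among protein-coding genes, the percent detected rose with exon length, while the median RPKM of those detected fell. RPKM divides reads by exon length, and its part in these medians was not tested. Lengths were the annotated ones or, where these gave no whole reads, lengths inferred from the values. Of 2027 genes with under 1000 exon bases 24.3% were detected, with a median of 20.8 RPKM among those detected, and of 2118 genes with 8000 bases or more 73.7% were detected, with a median of 1.97 RPKM. The medians of the classes between were 13.5, 8.23 and 4.19 RPKM in order of length. The genes under 1000 bases held 18.6% and 19.1% of the sum, those of 8000 bases or more 1.88% and 1.83%, and the 92 protein-coding genes among the first 100 had a median of 1472 exon bases against 3846 bases for all detected ones. By recovered reads in place of RPKM, with the same limit on lengths, the first 100 genes held 24.7% of the total in IHCs.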

How the data were processed

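RNA of IHCs and OHCs was amplified from picked cells and sequenced on an Illumina HiSeq instrument. The labels name RNeasy and SMARTer low input kits, and the study's methods name a related extraction kit and a later SMART-Seq version. Per the methods, the authors mapped reads to the mouse genome (GRCm38, mm10) in CLC Genomics Workbench, estimated gene levels with HTSeq count, and deposited RPKM values, 1 column per lane. The tool versions are not given in the sources used here.

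The 2 lanes of a library were averaged. Detection was set at 0.1 RPKM in both IHC libraries, the floor for a listed 0 was 3 reads in a library, and a pseudocount of 0.1 RPKM was added before log2 ratios. Gene types and exon lengths came from GENCODE M21, which lacked 382 of the gene identifiers. Reads were recovered from RPKM, exon length and the read total of a lane. That total was itself inferred, from RPKM and annotated exon length of genes taken to hold 1 read. Of 19961 genes above 0 in any lane, 14327 gave whole reads with the annotated length (within 0.01), and for the other 5634 the shortest length of up to 120000 bases that gave whole reads (within 0.0001) was used, so that their recovered reads rest on a length inferred from the same values. Lanes were said to differ where they did so more than 1.5 times in a gene of at least 1 RPKM (1280 genes), and the cause was not tested. Chi-square per gene between the first lanes of the IHC libraries was 1.58, over 12768 genes with 20 or more recovered reads in these lanes together. The study calls the libraries biological replicates of cells pooled from several mice, and which mice gave which library is not given in the sources used here, so the p-values cover the spread among the libraries alone. Intervals for counting were not formed, since amplified reads are not independent molecules.

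Family shares were compared with an exact permutation test over libraries, adjusted by Benjamini-Hochberg over the families. The permutation script was tested on simulated data. Genes named in the text are the 5 markers, the 25 most abundant genes, the first 4 of each family, the first 3 and the zero members of each paralog set, the first 5 and the zero members of each other list, and the first 10 genes outside all families and sets. Sox2, Col1a1 and Syt7 fall outside this rule and were named after their values were seen. Members, families, sets and lists were chosen with earlier results of these data known. Alternatives were single lanes, single libraries, other thresholds and pseudocounts, sums without mitochondrial genes, low genes or genes whose lanes differ, shares of recovered reads and a replicate block. Python 3.11.15, numpy 2.4.6, pandas 2.3.3 and matplotlib 3.10.9 were used. Some genes, and the paralog sets they lead or follow, are not reported here.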

Additional observations from a re-analysis of the deposited data

How the results depend on the processing

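The share held by the 100 most abundant genes, 38.1% in IHCs, was 34.4% without mitochondrially encoded genes, 39.1% without genes whose lanes differ, 24.7% as a share of recovered reads and, in an alternative chosen after seeing the data, 37.2% without markers of other cell types, globins and matrix genes. 1 gene held more than 75% in 39 paralog sets, against 63 sets at more than 50%. Of the IHC minus OHC differences in family shares, in percentage points, the receptors for glutamate, GABA and glycine counted with Grina (0.00119 without IHC replicate 2) reversed to -0.000131 without IHC replicate 1 and to -0.00016 without mitochondrially encoded genes, and the citrate cycle reversed to -0.000224 in the same setting. On recovered reads EF-hand proteins counted with Pcp4 reversed to 1.37, creatine and adenylate kinases to -0.00728 and endocytosis to -0.0206. The cause was not tested. The other 496 recomputed family differences kept their direction. Of single genes, 106 recomputed levels moved by less than 1 SD of the 2 libraries and 10 by more. Leaving out 1 of 2 libraries always moves the mean by less than this SD. Only levels from 1 lane alone could therefore move by more, and the 10 were of that kind.

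Leaving out 1 library gave 14977 to 15001 detected genes (14429 with both), a share of the first 100 genes of 37.9% to 38.3%, 40 to 41 families without overlap, 62 to 63 sets over 50%, 31439 to 31556 genes at 0 and 51 to 52 sets with a 2-fold gap. The replicate block gave 40 families with differences of 1 sign. Deviations of same-numbered libraries were correlated at -0.0309 over 9807 genes, so that the numbers were not taken as pairs. With 2 IHC libraries no test here can pass 0.05, and genes under about 0.0736 RPKM at 2 kilobases rest on fewer than 3 reads.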
